A study of Mus musculus with 4 samples.

Results

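The β-catenin destruction complex and the Dishevelled proteins were followed through 10 genes in sorted mouse bone marrow progenitors. All probes were taken whose gene symbol in the deposited signal table is Axin1, Axin2, Apc, Gsk3a, Gsk3b, Csnk1a1, Btrc, Dvl1, Dvl2 or Dvl3. This gave 17 probes on 18 spots, out of 55681 probes, of which 33325 carry a symbol and stand for 24278 genes. Of the 10 genes, 4 had 1 probe, 5 had 2 and Gsk3b had 3. The brightest probe of a gene over the arrays is called probe 1 and stands for the gene, and further probes are numbered by falling brightness.

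The samples were freshly isolated cells of adult bone marrow from SFRP5-transgenic mice (SFRP5) and from their wild-type littermates (WT), each sorted as CLP and as LSK. Both sorts started from cells without lineage markers. CLP were gated on low c-kit, low Sca-1 and the IL7Rα chain, which enriches common lymphoid progenitors, and LSK on high c-kit and Sca-1, which keeps stem cells and multipotent progenitors. The sources used here do not give the promoter that drives the transgene, its species of origin, the number of mice behind a sample or their sex. Each of the 4 groups was measured on 1 single-colour array, so that no value has a replicate check and no test between groups was made. "Higher" and "lower" describe these arrays.

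In cells without a Wnt signal, Axin and Apc act as scaffolds that bring β-catenin to the kinases casein kinase 1α and glycogen synthase kinase 3. The phosphorylated β-catenin is then recognised by β-TrCP, the product of Btrc, and is degraded. When a Wnt ligand binds Frizzled and its co-receptor, Dishevelled is recruited to the membrane, draws Axin with it and halts the degradation, and β-catenin reaches its target genes. Axin2 is one of those targets and acts as a feedback inhibitor. SFRP5 is a secreted protein that binds Wnt ligands, and the series asked which genes its expression affects. Most of this machinery is known to be regulated through protein modification and turnover, which arrays do not measure.

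Signals are log2 values after the array's 75th percentile was subtracted. A probe counted as measured where the scanner software called it well above background. The spot spread given with a difference is built from the median SD between replicate spots of 432 probes at the same brightness. It covers the array surface alone, not cells, mice or amplification. Of the 17 probes, 15 were well above background on all 4 arrays, the exceptions being both probes of Axin2.

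Several other gene groups differed along with the genotype. Xist was at 4.50 in SFRP5 CLP and 4.99 in SFRP5 LSK and not well above background on either WT array, and the 4 Y-linked genes examined were all lower in SFRP5 in both sorts, by log2 differences from -0.82 to -2.26. Of 18 immediate early genes, 10 in CLP and 11 in LSK were 2-fold or more above WT, and 1 in CLP and 0 in LSK as far below it. In LSK, 5 of 9 measured granulocyte and monocyte genes were also 2-fold or more above WT, and 0 as far below it. The summed level of the 10 genes of that list was 360.4 in SFRP5 and 409 in WT. Most of each sum came from Csf3r alone, at 8.12 in SFRP5 LSK and 8.46 in WT LSK, so the sums do not describe the list as a whole. All 9 erythroid genes were lower in SFRP5 CLP than in WT CLP, with a median of -0.66 and a summed level of 270.2 against 483 times the 75th percentile. The Xist and Y-linked signals followed the genotype in both sorts, so that a genotype difference and one of sex cannot be told apart on these arrays. The part of all these group differences in the results below was not tested.

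Among the scaffolds, Axin1 (cytoband 17qA3.3) was at 3.12 in SFRP5 CLP, 3.31 in WT CLP, 3.31 in SFRP5 LSK and 2.56 in WT LSK. On this scale WT LSK stood below the other arrays, which lay close together. After quantile normalization, CLP minus LSK was -0.45 in SFRP5 and 0.28 in WT in place of -0.19 and 0.75, so that SFRP5 LSK stood above the rest, and cyclic loess and the authors' scaling moved both values the same way. The genotype difference was therefore 0.75 in LSK (spot spread 0.09) and -0.20 in CLP (0.08), on a single probe.

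Apc (18qB1), the large scaffold whose loss frees β-catenin, stood out by sort. Probe 1 was at -1.39 in SFRP5 CLP, -1.74 in WT CLP, -0.05 in SFRP5 LSK and 0.24 in WT LSK. Its replicate spots were at -1.33 and -1.45 in SFRP5 CLP, at -1.67 and -1.82 in WT CLP, at -0.14 and 0.04 in SFRP5 LSK, and at 0.19 and 0.29 in WT LSK. Both spots of each CLP array thus lay below every spot of the LSK arrays. Probe 2 was at -0.74 in SFRP5 CLP, -1.63 in WT CLP, -0.99 in SFRP5 LSK and -0.47 in WT LSK. On both probes WT CLP was the lowest of the 4 arrays and WT LSK the highest, but probe 2 placed SFRP5 CLP above SFRP5 LSK. By genotype, probes 1 and 2 gave log2 differences of -0.29 and -0.52 in LSK, and of 0.35 and 0.89 in CLP. SFRP5 was below WT in LSK and above it in CLP on both probes, by less than 2-fold each time.

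Axin2 (11qE1) was near background throughout. Probe 1 was at -4.75 in SFRP5 CLP, -3.24 in WT CLP, -3.73 in SFRP5 LSK and -6.90 in WT LSK, well above background in WT CLP and SFRP5 LSK only. Probe 2 was at -5.94 in SFRP5 CLP, -3.86 in WT CLP, -5.20 in SFRP5 LSK and -4.23 in WT LSK, well above background on the WT arrays only. SFRP5 CLP was the only array on which neither probe was well above background, and WT CLP the only one on which both were. By probe 1 Axin2 was 2.84-fold lower in SFRP5 CLP than in WT CLP (spot spread 0.42 log2), and by probe 2 it was 2.46-fold lower by a bound. Such a bound sets the WT signal against the higher of the dim signal itself and the lowest signal called well above background on the SFRP5 array (-5.16). For probe 1 the dim signal was the higher, so 2.84 is a plain ratio to a reading not well above background. That reading lay above -5.16 without being called, so neither value is a guaranteed lower limit. In CLP, 1632 genes were above background on 1 of the 2 arrays, and 22.0% of them were at least 2-fold lower in SFRP5 by such a bound, so that Axin2 was one of many. In LSK the probes pointed opposite ways, so no direction is given for Axin2 in LSK. Every Axin2 signal lay below -3, and below -4 the median spot SD was 0.37 to 0.49 on the 4 arrays.

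**Figure D1:**
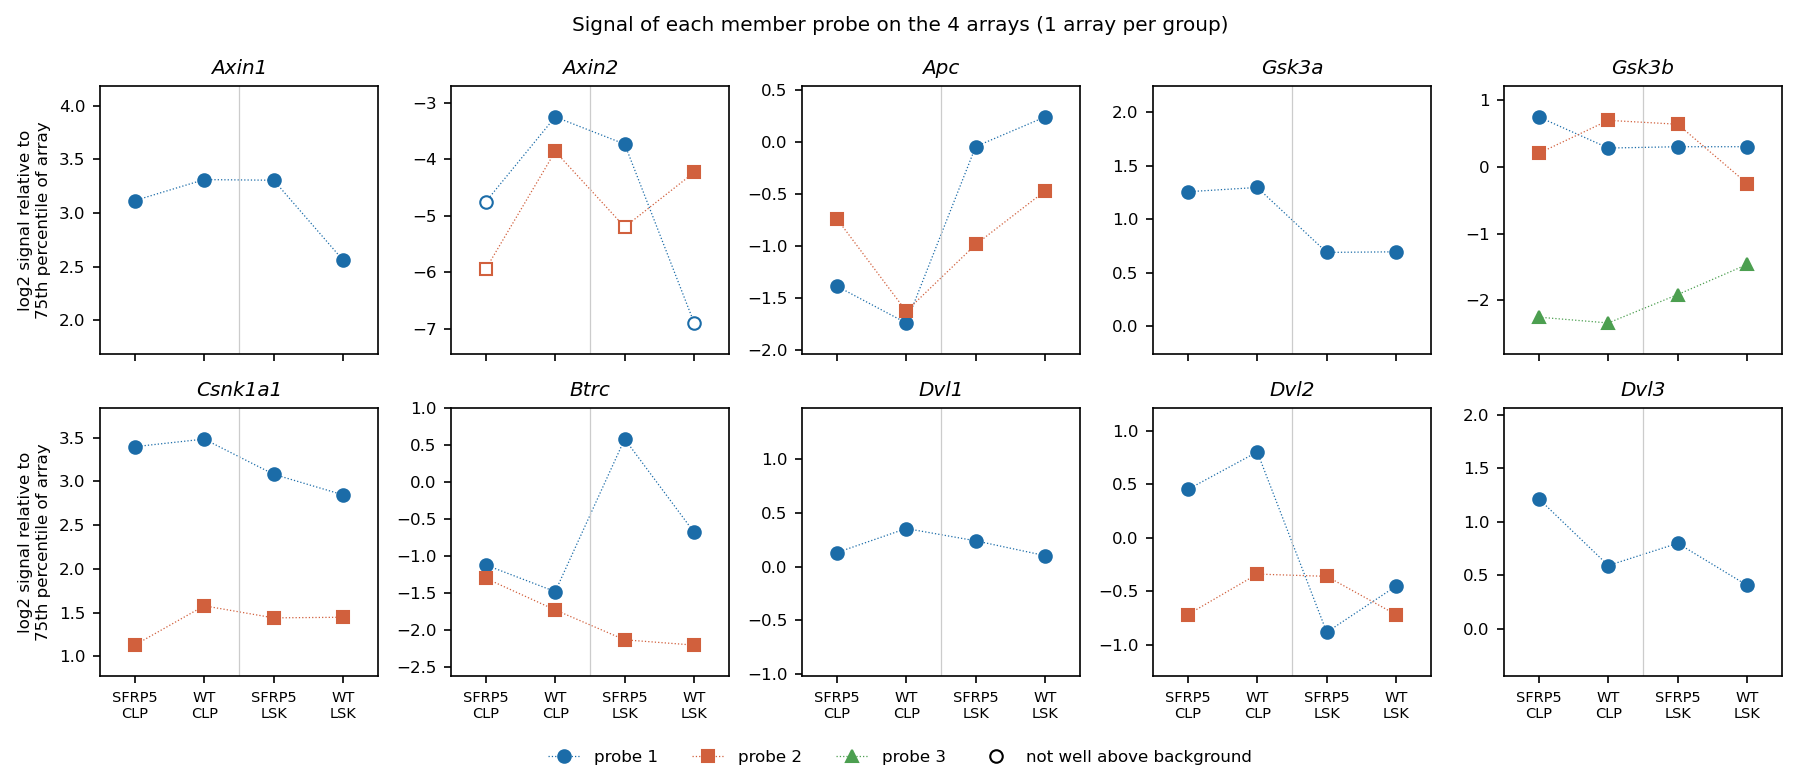
Signal of each probe of the 10 genes on the 4 arrays (log2, 75th percentile of the array subtracted), with 1 point per array and dotted lines joining the points of a probe; panels differ in range. Open symbols are not well above background, which occurs only for Axin2. The probes of Apc share their lowest array (WT CLP), whereas those of Btrc, Dvl2 and Gsk3b part ways.

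Since Axin2 is a transcriptional target of the pathway, the promoters were searched for the core TCF/LEF motif, the site of the factors that bring β-catenin to DNA. The motif was CTTTGA or CTTTGT followed by A or T, on either strand, which makes 4 words of 7 letters. RefSeq windows of 300 bases (250 before to 50 after the annotated start, GRCm38.p6) were at hand for 6 of the 10 genes: Axin2, Gsk3a, Gsk3b, Dvl1, Dvl2 and Dvl3. The motif was found in 1 of the 6, that of Gsk3a, and in 16.9% of all 32851 windows. The Axin2 window is shown because its gene is the pathway's read-out, and the Gsk3a window (chr7:25237802-25238101, minus strand) because it holds the motif, in capitals, starting at position -158. The Axin2 window (chr11:108920099-108920398, plus strand) holds none of the 4 motifs, which says nothing of sites elsewhere in the gene.
Axin2: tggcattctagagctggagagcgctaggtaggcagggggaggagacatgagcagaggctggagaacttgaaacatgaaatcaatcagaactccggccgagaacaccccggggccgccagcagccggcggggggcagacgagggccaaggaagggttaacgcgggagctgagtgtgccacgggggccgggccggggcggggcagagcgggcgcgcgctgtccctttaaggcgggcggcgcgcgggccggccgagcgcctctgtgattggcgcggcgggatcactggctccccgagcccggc
Gsk3a: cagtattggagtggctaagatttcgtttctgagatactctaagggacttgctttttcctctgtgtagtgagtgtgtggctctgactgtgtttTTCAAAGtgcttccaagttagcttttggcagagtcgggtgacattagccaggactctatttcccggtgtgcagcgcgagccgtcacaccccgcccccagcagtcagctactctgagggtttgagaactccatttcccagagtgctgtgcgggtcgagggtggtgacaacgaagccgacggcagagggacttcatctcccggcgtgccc

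Among the kinases, Gsk3a (7qA3) was at 1.26 in SFRP5 CLP, 1.30 in WT CLP, 0.69 in SFRP5 LSK and 0.69 in WT LSK. The genotypes coincided in each sort, with differences of -0.005 in LSK and -0.04 in CLP, both smaller than the spot spread (0.10 and 0.09). Both CLP arrays lay above both LSK arrays, by 0.57 in SFRP5 and 0.60 in WT. In the authors' scaling the genotype difference in LSK was -0.134, outside that spread. CLP minus LSK was then 0.38 in SFRP5 and 0.19 in WT, so that the genotypes no longer gave nearly equal values.

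Gsk3b (16qB3), its paralog, gave 3 different patterns on 3 probes. Probe 1 was at 0.75 in SFRP5 CLP, 0.28 in WT CLP, 0.30 in SFRP5 LSK and 0.30 in WT LSK. Probe 2 was at 0.20 in SFRP5 CLP, 0.70 in WT CLP, 0.64 in SFRP5 LSK and -0.25 in WT LSK. Probe 3 was at -2.25 in SFRP5 CLP, -2.34 in WT CLP, -1.91 in SFRP5 LSK and -1.46 in WT LSK. By genotype in LSK the 3 probes therefore gave -0.001, 0.89 and -0.45, and in CLP 0.47, -0.49 and 0.09. In CLP, where probe 1 was beyond its spot spread, probe 2 went the opposite way. In LSK probe 1 gave no direction by genotype, its -0.001 lying inside a spot spread of 0.10. The deposited table names the same transcript for all 3 probes, and their places on it are not used here. No direction by genotype can be given for Gsk3b.

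Csnk1a1 (18qE1), which encodes the priming kinase casein kinase 1α, differed little by genotype. Probe 1 was at 3.40 in SFRP5 CLP, 3.49 in WT CLP, 3.08 in SFRP5 LSK and 2.85 in WT LSK, and probe 2 at 1.13, 1.58, 1.44 and 1.45 on the same arrays in that order. Its genotype differences were 0.24 and -0.01 in LSK and -0.09 and -0.45 in CLP for probes 1 and 2, all within 1.5-fold.

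Btrc (19qC3), which encodes the F-box protein that hands β-catenin to the ubiquitin ligase, had the largest genotype difference among the measured probes. Probe 1 was at -1.11 in SFRP5 CLP, -1.47 in WT CLP, 0.59 in SFRP5 LSK and -0.68 in WT LSK. SFRP5 LSK stood above the other 3 arrays, 2.40-fold above WT LSK (log2 difference 1.26, spot spread 0.11). Probe 2, dimmer, was at -1.30 in SFRP5 CLP, -1.72 in WT CLP, -2.13 in SFRP5 LSK and -2.20 in WT LSK. On that probe the genotypes differed by 0.07 in LSK, inside its spot spread of 0.30, so the LSK difference was not repeated. With normexp background correction, probe 1 itself gave 0.85, below 2-fold. In CLP both probes gave SFRP5 above WT by a similar amount, 0.36 and 0.43, under 1.5-fold. The probes also disagreed on the sorts, CLP minus LSK being -1.70 in SFRP5 and -0.80 in WT on probe 1, and 0.83 and 0.48 on probe 2.

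Among the Dishevelled genes, which relay the signal from Frizzled, Dvl1 (4qE2) was the steadiest of the members above background on all arrays, over a range of 0.25. It was at 0.13 in SFRP5 CLP, 0.36 in WT CLP, 0.24 in SFRP5 LSK and 0.10 in WT LSK. Dvl3 (16qA3) was at 1.22 in SFRP5 CLP, 0.59 in WT CLP, 0.80 in SFRP5 LSK and 0.41 in WT LSK. Both SFRP5 arrays lay above both WT arrays, with log2 differences of 0.39 in LSK (spot spread 0.10) and 0.62 in CLP (0.09), on a single probe. Dvl2 (11qB3) was at 0.45 in SFRP5 CLP, 0.80 in WT CLP, -0.88 in SFRP5 LSK and -0.45 in WT LSK by probe 1. Probe 2 was at -0.72 in SFRP5 CLP, -0.34 in WT CLP, -0.36 in SFRP5 LSK and -0.72 in WT LSK. In CLP both Dvl2 probes gave SFRP5 below WT, with differences of -0.35 and -0.38. In LSK they disagreed, at -0.43 and 0.36. The deposited table assigns the Dvl2 probes to different transcript records. Over the 3 paralogs the genotype differences of all probes ran from -0.43 to 0.62, and no Dishevelled probe reached 2-fold.

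**Figure D2:**
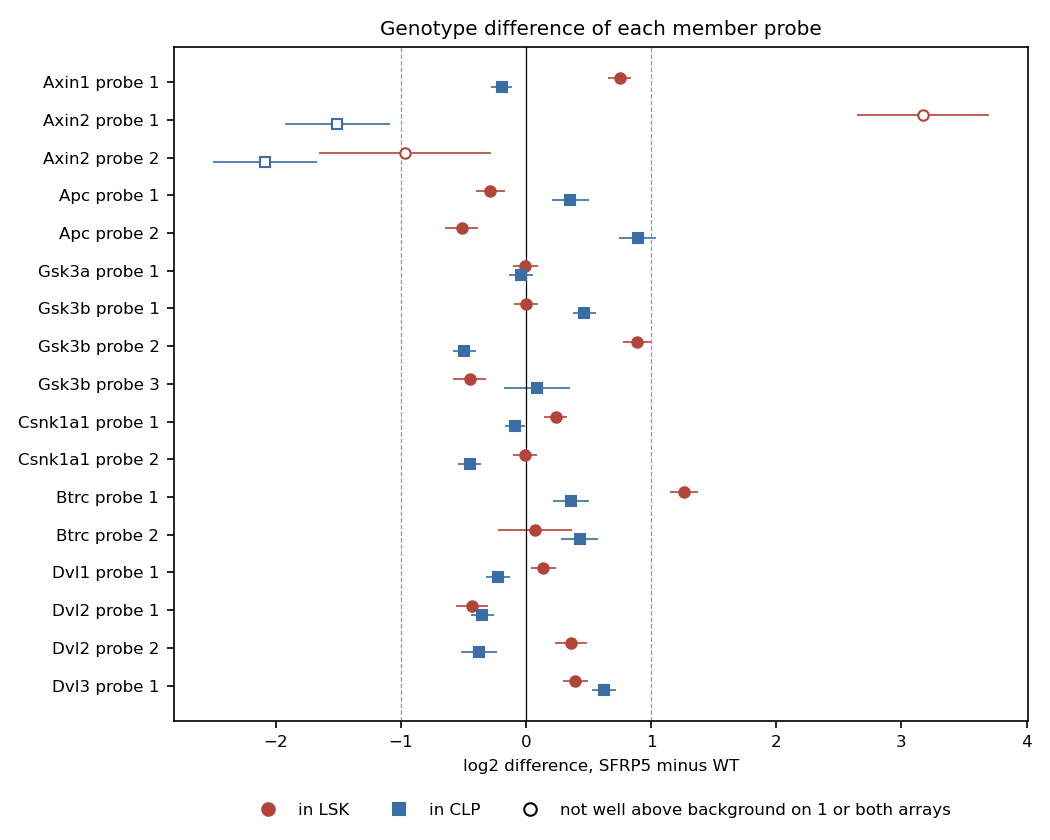
Log2 difference of SFRP5 minus WT for each probe in LSK (circles) and in CLP (squares), with bars for the spot spread; dashed lines mark 2-fold, and open symbols were not well above background on 1 or both arrays. Btrc probe 1 in LSK (1.26) is the only measured probe past 2-fold. The Axin2 probes lie left of zero in CLP and on opposite sides in LSK.

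Counted by probe 1 in LSK, 9 of the 10 genes were measured on both arrays, and 1 was at least 2-fold higher in SFRP5 (Btrc), 0 were at least 2-fold lower and 8 were within 2-fold. Over all 16125 genes measured in LSK, 13.7% differed by 2-fold in either direction (6.57% higher and 7.17% lower), so that 1 of 9 is near the background. At 1.5-fold the count was 2, Axin1 and Btrc, against 34.9% of all genes, and Axin1 came to 0.578 with cyclic loess, just under 1.5-fold. In 7 of the 9 the difference was below 0.5 in size. Their median was 0.14, against 0.02 over all genes and 0.18 over genes at or above the 75th percentile on at least 1 of the arrays. In CLP 9 genes were measured and none reached 2-fold, where the background was 8.56% of 15942 genes (4.25% higher and 4.3% lower). The largest was Dvl3 at 0.62, the only one past 1.5-fold (1.54-fold), where 24.0% of all genes were, and under it with normexp (0.528), and the lowest was Dvl2 at -0.35. The median was -0.04, equal to that of all genes. In both sorts 15 probes were measured, and the difference exceeded the spot spread for 11 of them in LSK and 13 in CLP. The share of all probes beyond their spot spread was not computed, so these counts do not set the members apart.

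**Figure D3:**
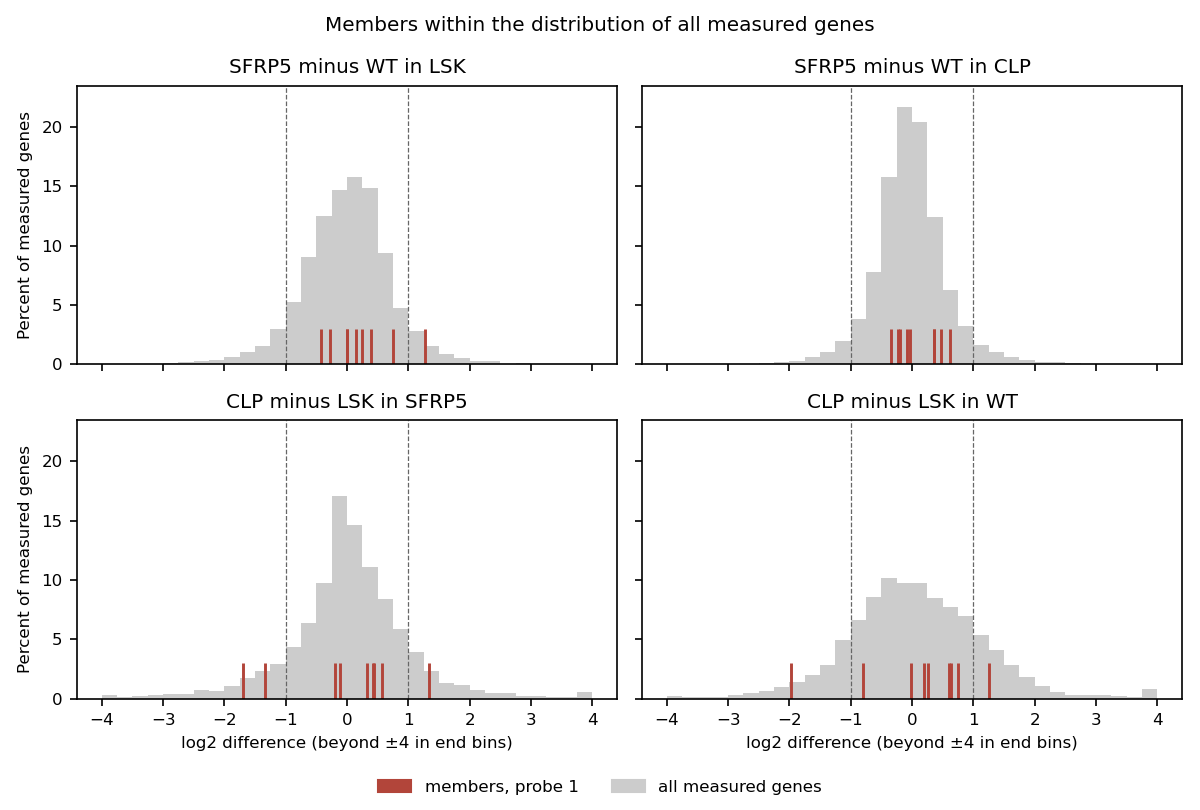
Distribution of log2 differences over all measured genes (grey bars, percent of genes per bin) with the probe 1 values of the 9 measured members (red lines), for each of the 4 comparisons; dashed lines mark 2-fold. Most members lie between the dashed lines, with Btrc past 2-fold in LSK by genotype, and Apc, Btrc and Dvl2 past it by sort.

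Further probes often departed from probe 1. Over the 6 further probes measured and the 4 comparisons, which share arrays, the sign was that of probe 1 in 12 of 24 cases (50.0%). Over all genes with a further probe it was the same in 64.9% of 21887 cases. Some of the 24 signs carry no direction, since Gsk3b probe 1, for example, was within 0.02 of zero by genotype in LSK and between sorts in WT. By genotype the sign was repeated for 3 of 6 probes in LSK and for 5 of 6 in CLP, against 61.1% and 61.0% over all genes. By sort it was repeated for 0 of 6 in SFRP5 and for 4 of 6 in WT, against 66.6% and 71.0%. The median gap between a further probe and probe 1 was 0.62 by genotype in LSK and 0.37 in CLP, against 0.47 and 0.35 over all genes with a further probe. Between sorts it was 1.24 in SFRP5 and 0.86 in WT, against 0.48 and 0.52.

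The CLP and LSK sorts were then compared within each genotype. Genes of several blood lineages differed widely between them. All 9 measured B lineage genes and all 8 measured erythroid genes were at least 2-fold higher in CLP than in LSK in both genotypes. The summed level of the 10 B lineage genes was 113 in SFRP5 CLP and 93.1 in WT CLP against 9.64 in SFRP5 LSK and 6.515 in WT LSK, and that of the 9 erythroid genes was 270.2 and 483 against 12.8 and 14.9 in the same order. Granulocyte and monocyte genes 2-fold or more higher in CLP were 6 of 10 measured in SFRP5 and 7 of 9 in WT, with 1 and 0 as far lower. Mast cell and basophil genes were 3 of 4 and 4 of 5, with 0 as far lower in either genotype. T and natural killer cell genes showed no common shift, with 1 of 4 higher in either genotype and 0 in SFRP5 and 1 in WT lower. Of all genes, 11.5% in SFRP5 and 17.8% in WT were that much higher in CLP, and 11.0% and 14.3% lower. The part of these cells in the sort differences of the members was not tested. A lower signal from fewer cells of a type and one from less RNA per cell cannot be told apart.

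In SFRP5 cells, 3 of 9 measured members differed by at least 2-fold between the sorts, against 22.5% of 15713 genes (11.5% higher and 11.0% lower), with Dvl2 higher in CLP (1.33) and Btrc (-1.70) and Apc (-1.34) lower. For all 3, probe 2 pointed the other way, at -0.36 for Dvl2, 0.83 for Btrc and 0.25 for Apc. Axin2 probe 1 was 2.04-fold lower in SFRP5 CLP, where it was not well above background, than in SFRP5 LSK (spot spread 0.43 log2). Of 2032 genes above background on 1 of the 2 arrays, 28.1% were at least 2-fold lower by a bound. In WT cells 2 of 9 members differed by at least 2-fold, against 32.1% of 16016 genes (17.8% higher and 14.3% lower). Apc was 3.95-fold lower in CLP (-1.98) and 2.23-fold lower by probe 2 (-1.16), and Dvl2 was higher by 1.25 with probe 2 at 0.38. Among probes well above background on both arrays, Apc in WT was the only case in the 4 comparisons of 2 probes of a member agreeing on a 2-fold difference. In WT, Axin1 (0.75), Csnk1a1 (0.64 on probe 1) and Gsk3a (0.60) were higher in CLP by over 1.5-fold. Btrc was lower (-0.80 on probe 1) at the same threshold, which 56.1% of all genes passed in WT and 41.7% in SFRP5. Probe 2 of Csnk1a1 gave 0.13 in WT, under 1.5-fold. After quantile normalization Axin1 (0.28), Csnk1a1 (0.15) and Gsk3a (0.43) were all under 1.5-fold. In the authors' scaling the 2-fold split in WT was 0 higher and 2 lower, with Dvl2 at 0.84 and Btrc at -1.21. The median over members was 0.32 in SFRP5 and 0.25 in WT, against 0.11 and 0.32 for genes at or above the 75th percentile on at least 1 of the arrays.

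**Figure D4:**
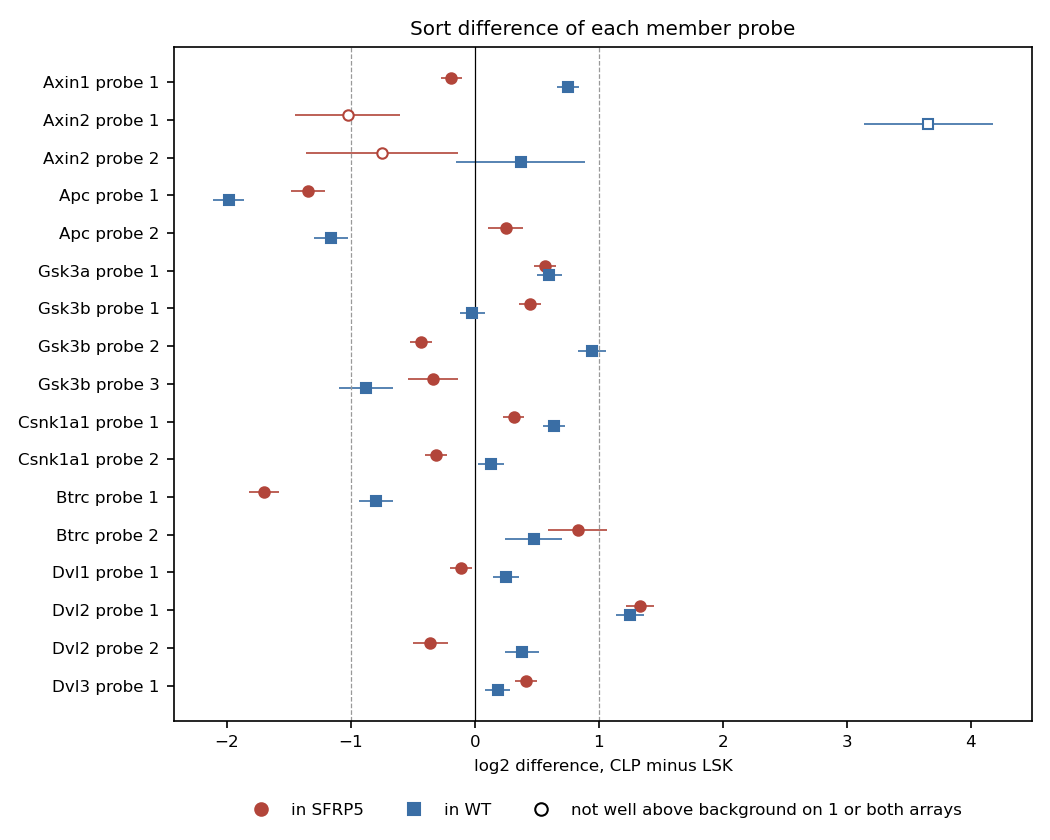
Log2 difference of CLP minus LSK for each probe in SFRP5 (circles) and in WT (squares), with bars for the spot spread; dashed lines mark 2-fold and open symbols were not well above background on 1 or both arrays. Apc lies left of -1 on both probes in WT and on opposite sides of zero in SFRP5, and Gsk3a gives nearly the same value in both genotypes on this scale.

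The other genes of the same machinery were followed through a list of 55 partners, regulators and feedback targets, all on the array. In LSK 45 were measured, of which 1 was at least 2-fold higher in SFRP5 and 0 lower, against 6.57% of all genes higher and 7.17% lower, with a median of 0.08. The highest were Ppp2r1a, the scaffold subunit of the phosphatase PP2A, at 1.12, and Tnks, a tankyrase that marks Axin for degradation, at 0.999, just short of 2-fold. The lowest were Klhl12, a ubiquitin ligase adaptor for Dishevelled, at -0.70, and Ankrd6 at -0.63. In CLP 46 were measured, of which 0 were at least 2-fold higher and 3 lower, against 4.25% of all genes higher and 4.3% lower, with a median of -0.002. The lowest were Znrf3, a ligase that removes Frizzled from the surface, at -1.12, and Csnk1g2, a casein kinase 1 isoform, at -1.03, and the third was Gskip, a GSK3-binding protein, at -1.002. The highest were the deubiquitinase gene Usp34, which acts on Axin, at 0.93, and Ppp2r1b at 0.83.

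Ctnnb1, which encodes β-catenin, the substrate of the complex, hardly varied, being at 4.88 in SFRP5 CLP, 4.88 in WT CLP, 5.04 in SFRP5 LSK and 5.04 in WT LSK. Its genotype difference was -0.003 in LSK and 0.004 in CLP. The 4 relatives of the members chosen for naming were within 1.5-fold by genotype in both sorts, as were further casein kinase 1 isoforms but not Csnk1g2. Of all genes, 34.9% passed 1.5-fold in LSK and 24.0% in CLP. Apc2 was at 0.04 in LSK and 0.16 in CLP, Fbxw11 (the second β-TrCP gene) at 0.22 and 0.52, Csnk1d at 0.56 and 0.49, and Csnk1e at 0.19 and 0.28. Csnk1e, a kinase that also phosphorylates Dishevelled, differed by -0.99 in SFRP5 and -1.08 in WT (CLP minus LSK). Between the sorts, 44 of the 55 genes were measured in SFRP5, with 3 past 2-fold upward in CLP and 2 downward, against 11.5% and 11.0% of all genes. In WT 45 were measured, with 7 upward and 3 downward, against 17.8% and 14.3%.

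**Figure D5:**
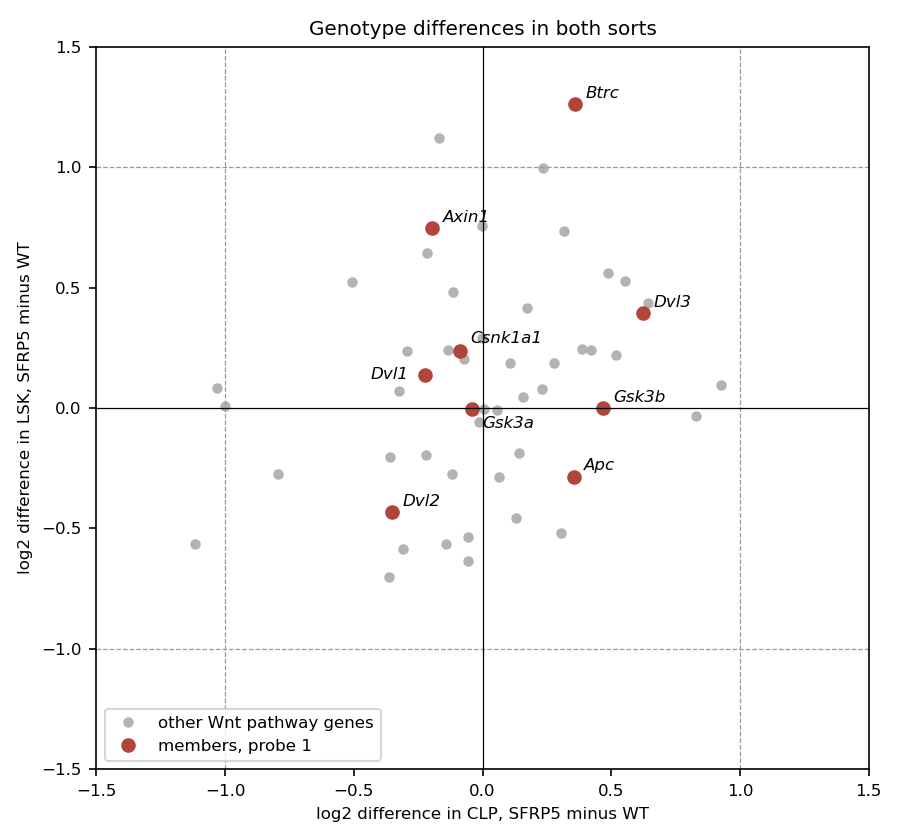
Log2 difference of SFRP5 minus WT in LSK (vertical) against that in CLP (horizontal), for probe 1 of the 9 members above background on all arrays (red) and for 44 other genes of the pathway (grey); dashed lines mark 2-fold. Btrc lies past 2-fold in LSK, Dvl3 is positive on both axes, and Axin1 and Apc lie in opposite quadrants.

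The member with the widest range over the 4 arrays, among those above background on all of them, was Btrc by probe 1 (2.06). Over the 4 arrays and 8197 other genes, the patterns closest to it belonged to Tmem42, Nod1 and Rgs2, with root mean square differences of 0.02, 0.07 and 0.12 log2 after centring. Since probe 2 of Btrc did not share this pattern, the likeness holds for probe 1 alone. Among the members themselves, the closest patterns were those of Gsk3a and Csnk1a1 (0.10), followed by Gsk3b and Dvl3 (0.16), all by probe 1. Further probes were not used for these distances. Each pattern has only 4 values, and distances between other genes were not computed to set beside them. The distances therefore do not show whether these likenesses are unusual, and shared regulation was not tested.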

How the data were processed

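Total RNA of 4 samples was hybridised to 1 slide of single-colour Agilent arrays. Per the file headers, the deposited intensity was background-subtracted and detrended by Agilent Feature Extraction 10.10.1.1, with probes annotated on mm9. In the authors' deposited signal table the same intensity is multiplied by an array-wide factor (4.91 to 6.42, computed here).

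The processed intensity of 59305 spots was put on the log2 scale minus the 75th percentile of each array, spots with outlier flags were dropped, and spots of a probe were averaged (limma 3.58.1, Python 3.11.15). Between 65.3% and 70.1% of probes were well above background. Differences were counted at 2-fold, without p-values. Symbols of genes outside the members were updated through Entrez IDs to RefSeq (30994 probes matched). The difference calculation was tested on simulated data with spot noise alone, in which no dim gene was changed. That test checks the arithmetic, not the reliability of the differences reported here. Members and 10 other gene lists were chosen with earlier results of these data known. The genes named are all members, the 2 highest and 2 lowest pathway genes per genotype comparison, 5 relatives or substrates, and the 3 genes closest in pattern to the most variable member. Gskip, which completes a count of 3, was named after its value was seen. Bounds replaced differences where a gene was above background on 1 of 2 arrays. A bound equals the plain ratio where the dim signal lies above the lowest called signal. As a check of the sorts, Kit was at 3.47 and 2.75 in SFRP5 and WT CLP and at 5.18 and 5.08 in SFRP5 and WT LSK, and Il7r at 3.13 and 2.52 against 0.89 and -0.51. Ly6a, which encodes Sca-1, was at -0.70 and -0.84 against 1.02 and 1.35. Flt3, a receptor known from lymphoid progenitors, was lower in the CLP sort, at 0.32 and 0.24 against 3.10 and 2.95.

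Alternatives were quantile and cyclic loess normalization, normexp (offset 50, on median spot signals because the files hold no mean signal), the authors' table, other filters on dim probes, averaging over probes and a 1.5-fold threshold. Use of probe 2 was added after seeing the data.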

Additional observations from a re-analysis of the deposited data

Results flagged for a closer look

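For 6 members, 7 probes gave genotype differences of opposite sign in the CLP and LSK sorts, each beyond the spot spread. The share of all probes that meet this rule was not computed, so the count does not set the members apart. The difference between the sorts was not tested, since each value rests on 1 array. SFRP5 minus WT in CLP minus the same in LSK came to 0.64 for Apc probe 1 and 1.41 for Apc probe 2, SFRP5 lying above WT in CLP and below it in LSK on both probes. It was -0.94 for Axin1, -0.32 for Csnk1a1 probe 1 and -0.36 for Dvl1, with SFRP5 below WT in CLP and above it in LSK. With normexp the CLP difference of Apc probe 1 was 0.106, inside its spot spread of 0.145. For Csnk1a1 the CLP difference was 0.004 after quantile normalization and 0.012 in the authors' scaling, so that the signs were no longer opposite. For Dvl1 the LSK difference was 0.01 in the authors' scaling, inside its spot spread. The value was -1.38 for Gsk3b probe 2 and -0.74 for Dvl2 probe 2, neither of which was repeated by probe 1 of its gene, at 0.47 and 0.08.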

How the results depend on the processing

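With 1 array per group, no difference here has an error between samples. No paired analysis was possible for the same reason, and the labels give no replicate numbers that pair samples across groups. No additive model of both factors was run. Under the 4 changes of scaling or background correction, 135 of 144 differences of single members kept the sign reported, the exceptions being values of Gsk3a, Gsk3b, Csnk1a1, Dvl1 and Dvl3. Members at 2-fold by genotype in LSK (1 as reported) numbered 0 with normexp, with averaged probes and with probe 2, and 2 without the dim filter and at 1.5-fold. In CLP (0 as reported) there was 1 without the dim filter, which was Axin2, and 1 at 1.5-fold. Between sorts in SFRP5 (3 as reported) there were 0 with the mean of the probes and with probe 2. In WT (2 as reported) there was 1 with the mean of the probes, 1 with probe 2, and 6 at 1.5-fold. The authors' scaling moved the median of all genes between sorts in WT to -0.40, and that of the members to -0.16; it gave members' medians of 0.01 by genotype in LSK, 0.06 in CLP, and 0.13 between sorts in SFRP5. Quantile normalization gave medians between sorts of 0.088 in SFRP5 and 0.15 in WT, cyclic loess 0.12 in SFRP5, and no dim filter 0.10 in SFRP5 and 0.43 in WT. The mean of the probes gave -0.11 between sorts in SFRP5. With probe 2 the medians were -0.20 by genotype in CLP, and -0.11 in SFRP5 and 0.38 in WT between sorts, and in SFRP5 the sort differences of Apc (0.25), Btrc (0.83) and Dvl2 (-0.36) reversed. Agreeing probe signs numbered 8 to 15 (12 as reported). Dim signals limit Axin2.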

Other observations

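Other feedback targets of Wnt signalling, named here after their values were seen, were set beside Axin2 in the CLP sort. Rnf43, a ligase that like Znrf3 removes Frizzled, was well above background only in WT CLP, at -0.88, on 1 probe. It was 18.8-fold lower in SFRP5 CLP (-5.12), a plain ratio to a reading not well above background, not a guaranteed lower limit. How many other genes reach such a ratio was not counted. Sp5, a target transcription factor, was well above background in WT CLP (-4.10) and not in SFRP5 CLP (-4.81). It was 1.63-fold lower in SFRP5 by a plain ratio of the same kind. Lef1, a TCF/LEF factor, went the other way on both of its probes, by 0.77 and 0.97. Nkd2, a Dishevelled-binding inhibitor, also went that way on probe 2, which was well above background in SFRP5 CLP (-2.43) and not in WT CLP (-4.77), and its probe 1 differed by 0.30. Tcf7, a relative of Lef1, was at 0.64 on probe 1 and -1.69 on probe 2. Of the 7 feedback genes measured on both CLP arrays by probe 1, 4 were above zero and 1 was at least 2-fold lower.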
